A study of Mus musculus with 2 samples.

Results

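DNase-seq peaks at CpG-poor promoters of protein-coding genes were described in newborn mouse heart. A peak was taken when its centre lay within 500 bp of the 5′ end of a GENCODE vM21 protein-coding gene whose CpG observed/expected ratio was below 0.4. The ratio sets the CpG dinucleotides counted from 500 bp before to 500 bp after the 5′ end against the number that the C and G content would give. Peaks with an annotated start of any gene at a ratio of 0.4 or more within 500 bp of their centre were left out. Peaks of both libraries that overlapped by at least 1 bp on chromosomes 1 to 19 were joined into 1 site. The rule gave 1248 sites, made of 1279 of the 160646 peaks of replicate 1 and 1287 of the 141265 peaks of replicate 2.

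The data come from 1 group of 2 libraries of whole heart tissue of the mouse strain B6NCrl on postnatal day 0, with no treatment or altered allele in the labels. The labels give each library a biosample of its own but the same donor label, and the sex was not collected. The spread between the libraries may therefore be technical, and an exact two-sided sign-flip test over 2 libraries cannot go below p = 0.5, so no p-values are given. Both values are printed instead. Whole heart holds cardiomyocytes beside endothelial, fibroblast, smooth muscle and blood cells, and fewer cells of a type cannot be told apart from lower accessibility per cell. Read totals are not known from the files, so no counting interval can be put on a peak.

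DNase I cuts chromatin where nucleosomes are displaced, so a peak marks an accessible stretch of DNA, and accessibility is not transcription. Most housekeeping genes of mammals start in CpG islands, which are open in nearly every tissue. CpG-poor promoters belong more often to genes used in 1 or a few cell types, are usually methylated where they are silent, and more often carry a TATA box. In heart they include many genes of the contractile apparatus.

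The sequences of 14 sites are given first, because they show the motifs that the counts below refer to. Each is the 150 bp peak of replicate 1 in the direction of transcription, ended no more than 30 bp past the annotated start, and read from GRCm38 (mm10). Capitals mark matches, on either strand, to 9 of the 15 motifs searched: the TATA box TATAAA, the MCAT element CATTCC, the GATA core GATAA, the E-box CAGCTG, the ETS core CAGGAAG, the CCAAT box, the GC box GGGCGG, the MEF2 site and the CArG box. Distances run from the first base of a match to the annotated start. A match is a stretch of letters, not a measured binding site.

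The first set shows matches to the MEF2 site, the AT-rich element of a transcription factor family of striated muscle, in 5 heart genes. Mybpc3 (cardiac myosin-binding protein C) lies at chr2:91117996-91118145 on the plus strand, with the match 90 bp upstream of the start. Xirp1, for an actin-binding protein of the intercalated disc, lies at chr9:120023596-120023745 on the minus strand, with the match 77 bp upstream. Xirp2, its relative, lies at chr2:67445856-67446005 on the plus strand, with the match 74 bp upstream. Casq2 (cardiac calsequestrin) lies at chr3:102086336-102086444 on the plus strand, with the match 69 bp upstream. Cox6a2 (the heart and muscle form of a cytochrome c oxidase subunit) lies at chr7:128206358-128206485 on the minus strand, with the match 28 bp upstream. Mybpc3 and Cox6a2 also hold the E-box CAGCTG, 108 and 85 bp upstream, and Mybpc3 a GATAA 60 bp upstream.
Mybpc3: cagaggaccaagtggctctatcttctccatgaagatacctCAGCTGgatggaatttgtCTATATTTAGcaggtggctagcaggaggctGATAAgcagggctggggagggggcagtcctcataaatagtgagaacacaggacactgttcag
Xirp1: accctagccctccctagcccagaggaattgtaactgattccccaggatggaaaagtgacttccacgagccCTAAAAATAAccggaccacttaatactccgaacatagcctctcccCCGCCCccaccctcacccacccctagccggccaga
Xirp2: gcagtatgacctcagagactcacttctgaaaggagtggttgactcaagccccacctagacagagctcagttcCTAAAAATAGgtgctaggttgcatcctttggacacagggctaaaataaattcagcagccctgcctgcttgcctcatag
Casq2: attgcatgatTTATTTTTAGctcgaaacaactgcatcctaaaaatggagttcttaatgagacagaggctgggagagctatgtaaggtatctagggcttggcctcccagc
Cox6a2: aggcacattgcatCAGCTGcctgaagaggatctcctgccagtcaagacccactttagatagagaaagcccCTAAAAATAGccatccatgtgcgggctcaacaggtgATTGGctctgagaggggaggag

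The second set holds the element of serum response factor, the CArG box, and the GATA core. Ldb3, for a Z-disc protein, lies at chr14:34588656-34588805 on the minus strand, with a CArG box 34 bp upstream. Acta1 (skeletal α-actin, also made in the newborn heart) lies at chr8:123894836-123894985 on the minus strand, with a CArG box 97 bp upstream. Tnnt2 (cardiac troponin T) lies at chr1:135836116-135836265 on the plus strand, with a GATAA on the opposite strand 186 bp and a CAGCTG 177 bp upstream. Gata4, for a cardiac transcription factor of the GATA family, lies at chr14:63271663-63271765 on the minus strand, with GATAA on the opposite strand 71 and 54 bp upstream.
Ldb3: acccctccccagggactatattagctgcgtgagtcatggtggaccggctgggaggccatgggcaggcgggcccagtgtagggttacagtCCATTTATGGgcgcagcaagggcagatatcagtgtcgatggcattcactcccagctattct
Acta1: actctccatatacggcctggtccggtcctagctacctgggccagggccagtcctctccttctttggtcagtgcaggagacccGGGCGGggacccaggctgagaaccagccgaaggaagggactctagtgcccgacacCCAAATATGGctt
Tnnt2: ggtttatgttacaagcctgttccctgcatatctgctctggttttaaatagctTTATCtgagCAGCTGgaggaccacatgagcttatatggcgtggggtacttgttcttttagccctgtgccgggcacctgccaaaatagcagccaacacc
Gata4: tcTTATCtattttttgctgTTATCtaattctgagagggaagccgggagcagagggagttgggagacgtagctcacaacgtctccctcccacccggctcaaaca

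The third set holds TATAAA at the place of a TATA box. Trim63 (the muscle ubiquitin ligase MuRF1) lies at chr4:134314976-134315125 on the plus strand, with TATAAA 31 bp upstream. Postn (periostin, a matrix protein of valves and fibroblasts) lies at chr3:54361016-54361138 on the plus strand, with TATAAA 28 bp upstream. Myh11 (smooth muscle myosin heavy chain) lies at chr16:14291343-14291485 on the minus strand, with TATAAA 21 bp upstream.
Trim63: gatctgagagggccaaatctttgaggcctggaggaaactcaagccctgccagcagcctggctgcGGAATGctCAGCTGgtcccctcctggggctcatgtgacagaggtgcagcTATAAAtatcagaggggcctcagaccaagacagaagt
Postn: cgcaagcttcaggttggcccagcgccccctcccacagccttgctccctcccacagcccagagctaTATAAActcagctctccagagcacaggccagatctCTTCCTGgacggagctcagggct
Myh11: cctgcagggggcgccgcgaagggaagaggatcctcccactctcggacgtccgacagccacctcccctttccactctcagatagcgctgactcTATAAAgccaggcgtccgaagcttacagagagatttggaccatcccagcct

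The last set is of strong sites without a match to TATAAA, CArG or MEF2 inside the peak. Ttn (titin, the giant spring of the sarcomere) lies at chr2:76982556-76982705 on the minus strand, with CCAAT 151 and 81 bp upstream. Ticam1, for the adaptor protein TRIF of Toll-like receptors, lies at chr17:56276856-56277005 on the minus strand, with the GC box GGGCGG 181 and 97 bp upstream.
Ttn: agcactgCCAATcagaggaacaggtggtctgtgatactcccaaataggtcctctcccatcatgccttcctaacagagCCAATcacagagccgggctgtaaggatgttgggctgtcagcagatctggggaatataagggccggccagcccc
Ticam1: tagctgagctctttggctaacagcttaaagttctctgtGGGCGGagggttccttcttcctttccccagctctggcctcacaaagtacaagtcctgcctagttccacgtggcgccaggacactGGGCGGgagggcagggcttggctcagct

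Few CpG-poor genes had a site. Of the 8133 CpG-poor protein-coding genes on chromosomes 1 to 19, 1113 (13.7%) had at least 1 site, whereas 10939 of the 12674 CpG-rich genes (86.3%) had a promoter peak shared by both libraries. No peak lay within 500 bp of the 5′ end in either library at 6496 CpG-poor genes (79.9%). A peak that met the rule was found in replicate 1 only at 235 genes and in replicate 2 only at 147. At 129 further genes every peak lay beside a CpG-rich start, and at 13 the peaks of the libraries did not overlap. The share with a site was 2.92% of genes at ratios below 0.1, 8.21% from 0.1 to 0.2, 19.7% from 0.2 to 0.3 and 29.7% from 0.3 to 0.4.

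**Figure D1:**
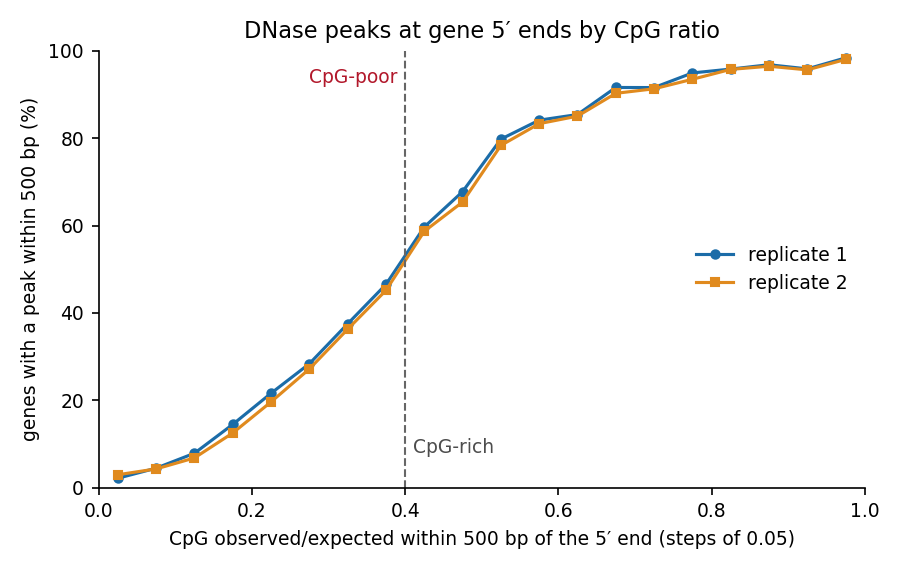
Percent of protein-coding genes with a peak within 500 bp of the 5′ end (vertical axis) by CpG observed/expected ratio in steps of 0.05 (horizontal axis), 1 line per library; the dashed line marks the ratio of 0.4. In replicates 1 and 2 the share was 46.5% and 45.2% in the step just below 0.4 and 59.7% and 58.7% in the step just above it, the largest rise between neighbouring steps in each library.

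The threshold of 0.4 cuts a continuous scale. The genes with a peak in both libraries just below it were Hif3a (values 93 and 93 in replicates 1 and 2), Igsf23 (33 and 33) and Chodl (28 and 20). Those just above it were Cplx3 (58 and 60), Rhoj (83 and 64) and Apold1 (71 and 61). Values just below the threshold thus ran from 20 to 93, and those just above it from 58 to 83.

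Some sites lay close to a CpG-rich start even so. A CpG-rich start lay within 2000 bp of the peak centre at 121 sites (9.70%), and more than 10000 bp away at 893. The median value was 54 and 52 at the near ones, against 51 and 46 at the far ones. Gapdh, the glycolytic housekeeping gene, was a member this way: its 5′ end is CpG-poor, with values of 106 and 100, and a CpG-rich start lies 838 bp away. Of the 1113 genes, 210 had another annotated start that was CpG-rich. When the window was centred on the peak of replicate 1 in place of the start, the ratio reached 0.4 at 47 sites.

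The members were weaker than CpG-rich promoter peaks and stronger than distal ones. The value is the signal that the authors' list gives each peak, a whole number that reached 148 at most, and it ranks peaks within a library. The median was 51 for the CpG-poor promoter peaks of replicate 1, against 82 for CpG-rich promoter peaks and 40 for distal peaks, more than 1 kb from any annotated start. In replicate 2 the medians were 47, 78 and 36 in the same order of classes. The difference was -31 against CpG-rich and 11 against distal peaks in each library, all counted over peaks shared by both libraries. The CpG-rich values lie nearer the highest value in the lists.

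The same order held for the authors' hotspots, the wider enriched regions around peaks. A hotspot at the highest −log10 q-value in the lists, 100, covered 58.8% and 52.7% of the CpG-poor promoter peaks in replicates 1 and 2. The shares were 84.1% and 81.3% for CpG-rich promoter peaks and 43.9% and 34.6% for distal peaks. Median hotspot width was 343 and 342 bp at CpG-poor promoters, against 740 and 771 bp at CpG-rich promoters and 261 and 253 bp at distal peaks. Mttp (microsomal triglyceride transfer protein) lay in 1 of the widest hotspots, 2881 and 2870 bp in replicates 1 and 2, with a CpG-rich start 581 bp from 1 of its sites.

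CpG-poor promoter peaks also lay between the other classes in how often they were found again. Before the overlap rule, 77.1% of 1689 peaks of replicate 1 and 82.3% of 1579 peaks of replicate 2 overlapped a peak of the other library. The shares were 85.5% and 86.8% for CpG-rich promoter peaks and 67.8% and 79.5% for distal peaks. CpG-poor promoter peaks that were not found again had a median value of 28 in replicate 1 and 22 in replicate 2, against 51 and 47 for those found again.

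Within the sites the libraries ranked the promoters alike. Values ran from 6 to 130 in replicate 1, with quartiles of 36, 51 and 73, and from 6 to 117 in replicate 2, with quartiles of 33, 48 and 68. Across the 1248 sites, which share caller and genome sequence in both libraries, Spearman's rho was 0.927. The value was lower in replicate 2 at 867 sites, higher at 325 and equal at 56, with a median log2 ratio (replicate 2 over 1) of -0.13. The values were not scaled between libraries, and the medians of CpG-rich promoter and distal peaks were also lower in replicate 2. Only 7 sites differed by more than 1 log2 unit. The peak began at the same base in both libraries at 34.9% of sites and within 20 bp at 75.5%.

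**Figure D2:**
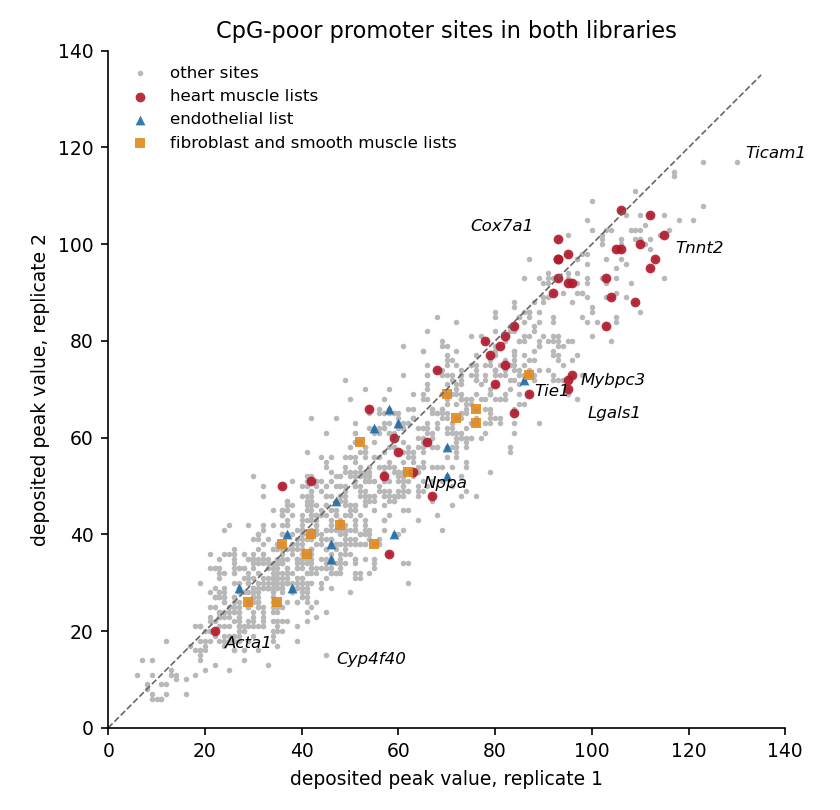
Deposited peak value of each of the 1248 sites in replicate 1 (horizontal axis) and replicate 2 (vertical axis), with sites of the heart muscle, endothelial, and fibroblast and smooth muscle lists coloured; the dashed line marks equal values. Sites of the heart muscle lists had median values of 92.5 and 80.5, against 51 and 48 over all sites. Among them Tnnt2 lies at 115 and 102, and Acta1 low at 22 and 20. Many of the highest sites are outside the lists, led by Ticam1 at 130 and 117.

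The strongest site belonged to Ticam1, with 130 in replicate 1 and 117 in replicate 2. Golph3l, for a Golgi protein, followed with 123 and 117, Ptms (parathymosin) with 117 and 115, and Grn (the growth factor progranulin) with 117 and 114. Fam13a had 123 and 108. Lmcd1, for a LIM domain protein of heart muscle, had 121 and 105. Angptl2, for a secreted angiopoietin-like protein, had 115 and 106, and Fcgrt, for the neonatal Fc receptor, 109 and 111. Of the 1248 sites, 67 reached 100 in replicate 1 and 41 in replicate 2, with 38 doing so in both, whereas 60 stayed under 25 in both.

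The sites with the largest absolute differences in value between the libraries, named for that reason, were all higher in replicate 1. Cyp4f40, a cytochrome P450 gene, had 45 and 15, and Mybphl (myosin-binding protein H-like) had 62 and 30 at 1 of its 2 sites. Lgals1 (galectin-1) had 97 and 68. Asb14 had 76 and 48, and Asb18 had 69 and 41, both genes of the ankyrin repeat and SOCS box family. Ptn (the growth factor pleiotrophin), with 62 and 34 at 1 of its 2 sites, had the same difference as Asb14 and Asb18. On the log2 scale Cyp4f40 had the largest difference, -1.58.

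Sarcomere and Z-disc genes had the highest share of sites among the 22 gene lists, which were chosen with earlier results of these data known. A site was present at 19 of the 24 CpG-poor genes of this list (79.2%, against 13.7% of all CpG-poor genes), with median values of 94 and 81.5. Of the thick filament genes, Myh6 (α-myosin heavy chain, the main adult form in mouse) had 110 and 100. Myh7 (β-myosin heavy chain, the fetal form in mouse) had 81 and 79. Myl2, for the ventricular regulatory light chain, had 104 and 89, and Mybpc3 had 95 and 70. Ttn had 113 and 97. These values are high in both libraries, yet Mybpc3 differed by 25 between them.

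Of the thin filament genes, Tnnt2 had 115 and 102. Tnnc1 (troponin C) had 87 and 69. Tnni3 (cardiac troponin I, which replaces the slow skeletal form after birth) had 59 and 60, at a 5′ end 1511 bp from the nearest RefSeq start. Lmod2, for leiomodin, which elongates actin filaments, had 106 and 99. Acta1 had 22 and 20, the lowest of the list. Z-disc and signalling genes were high, with 95 and 98 at Csrp3 (muscle LIM protein), 93 and 97 at Ldb3, and 79 and 77 at Tcap (telethonin). Xirp2, at 58 and 36, was well below Xirp1, at 92 and 90. Both carry a MEF2 match at nearly the same distance, and a link of the match to the value was not tested.

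The region around Tnnt2 held many more peaks in 1 library than in the other. Replicate 1 had 64 distal peaks within 50 kb of the Tnnt2 start and replicate 2 had 15, and 32 peaks lay inside the gene in replicate 1 against 1 in replicate 2. Gata4 showed the opposite, with 23 and 38 distal peaks and 24 and 41 peaks inside the gene. The promoter values were close between the libraries for Gata4, at 82 and 81. For Tnnt2 they were 115 and 102, and the median absolute difference over all sites was 6. What made these runs of peaks was not tested.

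Calcium handling and ion channel genes had sites at 7 of 12 CpG-poor members (58.3%, against 13.7% of all CpG-poor genes). Jph2 (junctophilin, which ties the sarcoplasmic reticulum to the plasma membrane) had 112 and 106. Cacna1c, the pore of the L-type calcium channel, had 106 and 107, and Slc8a1 (the sodium-calcium exchanger) had 112 and 95. Pln (phospholamban, which holds back the calcium pump) had 109 and 88 at the stronger of its 2 sites. Casq2 had 84 and 83 at its start and 84 and 65 at a second site upstream. Hrc, for a calcium-binding protein of the sarcoplasmic reticulum, had 66 and 59, and the potassium channel gene Kcna5 had 57 and 52. Jph2, Cacna1c, Slc8a1 and Pln were thus at the level of the strong sarcomere genes, and Hrc and Kcna5 lower.

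The list of energy metabolism genes had sites at 9 of 15 CpG-poor members (60%, against 13.7% of all CpG-poor genes). Cpt1b, the muscle carnitine palmitoyltransferase that brings fatty acids into mitochondria, had 103 and 93. The heart and muscle forms of cytochrome c oxidase subunits were high, with 93 and 101 at Cox7a1, 93 and 97 at Cox6a2 and 80 and 71 at Cox8b. Pgam2 (muscle phosphoglycerate mutase) had 95 and 92, Trim63 had 96 and 73, and Ckmt2 (mitochondrial creatine kinase) had 60 and 57. Eno3 (muscle enolase) had 67 and 48. Cd36, the fatty acid transporter, had 36 and 50, the lowest of the list in replicate 1, while Eno3 was the lowest in replicate 2.

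Of the natriuretic peptides, Nppb had 93 and 93, with an offset of the peak centre of -57 bp from the start in replicate 1, whereas Nppa had 63 and 53 with an offset of -371 bp. Both were thus accessible, Nppb more strongly in each library. Among 8 CpG-poor regulators, 3 had a site (37.5%, against 13.7% of all CpG-poor genes). Popdc2, for a membrane protein of cardiomyocytes that binds cyclic AMP, had 105 and 99. Gata4 had 82 and 81, and Ankrd2, for a stretch-responsive muscle protein, had 68 and 74.

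Together, the 5 heart muscle lists had a site at 40 of 63 CpG-poor genes (63.5%, against 13.7% of all CpG-poor genes). The 44 sites had median values of 92.5 and 80.5. Of the 23 genes without a site, 19 had a peak in both libraries within 500 bp of some annotated start of the gene. Over all 7020 CpG-poor genes without a site, 1059 (15.1%) had one. The counts were 5 of 6 for endothelial genes and 3 of 6 for fibroblasts and matrix. They were lower for pericytes and smooth muscle, at 1 of 4, and for epicardium, at 1 of 5. Among other cells, the counts were 3 of 13 for erythroid genes, 3 of 14 for pancreas and gut and 2 of 12 for epidermis. Skeletal muscle had 2 of 14, hepatocytes 2 of 23, macrophages and myeloid cells 1 of 24 and lymphoid cells 1 of 19. Mast cells (6 genes) and the male germline (9) had none. Actc1 (cardiac α-actin) had 109 and 103 at another start, its nearest peak lying 597 bp from the annotated 5′ end. Ckm (muscle creatine kinase) had 95 and 85 at another start, and Mb (myoglobin) also 95 and 85. Smyd1, for a muscle methyltransferase, had 93 and 77, and Mef2c, for a MEF2 family factor, had 90 and 84 at other starts. Only Myl7 (the atrial light chain), Sln (sarcolipin) and Ucp3 had no peak at any annotated start in either library. The 19 genes thus had a peak at an annotated start in both libraries, but no site by the rule. At Adm (60 and 58), S100a1 (79 and 78) and Hspb2 (61 and 49) this start was the 5′ end itself. The peaks of Adm and S100a1 lay beside a CpG-rich start, and Hspb2 had a peak that met the rule in replicate 2 only.

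**Figure D3:**
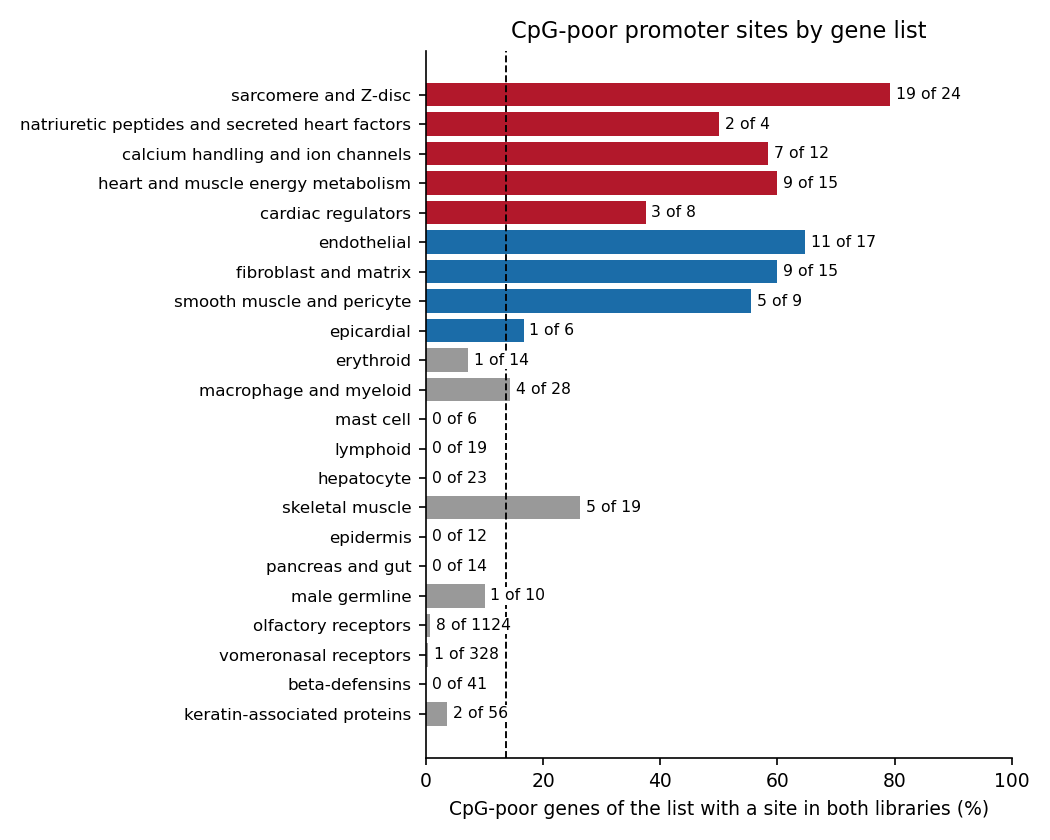
Percent of the CpG-poor genes of each list with a site in both libraries (horizontal axis), with the counts at the bars; red bars are heart muscle lists, blue bars other heart cell types, grey bars other lists, and the dashed line the 13.7% of all CpG-poor genes. The sarcomere list stands highest at 19 of 24, and 6 lists have no site.

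Genes of the endothelial, fibroblast and smooth muscle lists were frequent too, at lower median values than the 5 heart muscle lists together. The endothelial list had sites at 11 of 17 CpG-poor genes (64.7%, against 13.7% of all CpG-poor genes), with median values of 55 and 47. Tie1, an endothelial receptor tyrosine kinase, had 86 and 72. Robo4, a vascular guidance receptor, had 70 and 58, and Cdh5 (VE-cadherin) had 58 and 66. Tek, the angiopoietin receptor, had 46 and 35, and Pecam1, the junction protein CD31, had 27 and 29 at a 5′ end that lies 35347 bp from the nearest RefSeq start of the gene. None of these reached the median of the sarcomere list in its library.

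Fibroblast and matrix genes had sites at 9 of 15 CpG-poor members (60%, against 13.7% of all CpG-poor genes), with median values of 52 and 42. Ogn (the proteoglycan osteoglycin) had 70 and 69 and Col5a2 (a type V collagen chain) 72 and 64. Of the genes for the main fibrillar collagens, Col1a1 had 48 and 42, and Col3a1 had 42 and 40. Postn had 41 and 36, and Dcn (decorin) had 55 and 38. In the smooth muscle and pericyte list, 5 of 9 had a site (55.6%), with median values of 76 and 63. Myh11 had 76 and 66, Acta2 (smooth muscle α-actin) 76 and 63, and Cspg4 (the pericyte proteoglycan NG2) 87 and 73, at a site shared with the neighbouring start of Odf3l1. Rgs5, a pericyte regulator of G-protein signalling, was low with 35 and 26. The only epicardial member of 6 with a site (16.7%, against 13.7% of all CpG-poor genes) was Krt19, with 36 and 22. The 5′ end used for Krt19 lies 2739 bp from the nearest RefSeq start.

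Apart from the skeletal muscle list, lists for cells that are rare in or foreign to the heart stood near or below the 13.7% of all CpG-poor genes. The erythroid list had a site at 1 of 14 CpG-poor genes. The macrophage and myeloid list had 4 among 28, a share of 14.3%. They were Lyve1 (43 and 33), a receptor of lymphatic endothelium and resident macrophages, Cd68 (39 and 29), for a lysosomal protein of macrophages, Camp (34 and 26), for the antimicrobial peptide cathelicidin, and F13a1 (23 and 24), for clotting factor XIII. No site was found at the CpG-poor genes of the mast cell (6), lymphoid (19), hepatocyte (23), epidermis (12) and pancreas and gut (14) lists or at 41 beta-defensins. The male germline list had 1 of 10, the sperm surface gene Adam2, with 24 and 17. In all, 6 of the 126 CpG-poor genes of these 8 cell type lists had a site (4.76%), and 11 of 145 (7.59%) with the skeletal muscle list included.

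Sensory receptor families, which make up much of the CpG-poor class, were nearly without sites. Of 1124 olfactory receptor genes 8 had a site (0.712%, against 13.7% of all CpG-poor genes), and of 328 vomeronasal receptor genes 1 had one (0.305%). Keratin-associated protein genes had 2 of 56. The olfactory receptor sites had median values of 32 and 21, below the medians of all sites.

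Skeletal muscle genes were mixed, with sites at 5 of 19 CpG-poor members (26.3%, against 13.7% of all CpG-poor genes). Tnnt1, for slow skeletal troponin T, had 88 and 82. The others were low: Mybpc2 (fast myosin-binding protein C) had 41 and 46, Myog (myogenin) 38 and 36, Myh8 (perinatal myosin heavy chain) 34 and 28 at its stronger site, and Actn3 (α-actinin 3) 22 and 22. All but Tnnt1 lay under the median of the sites in both libraries.

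Most member genes had 1 site, and 156 had 2 or more. Lmod3, for a muscle leiomodin, had 3, with 87 and 97, 55 and 51, and 50 and 28 from strongest to weakest. Opn1sw (the short-wave cone opsin) also had 3, the strongest with 76 and 74, as did Zfp54 with 72 and 70 and Trim12c with 98 and 90. Genes with a site had a median of 7 and 6 distal peaks within 50 kb in replicates 1 and 2, against 3 and 2 at CpG-poor genes with no peak. CpG-rich genes with a shared peak also had 7 and 6.

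Peaks lay mostly just upstream of the start. The median offset of the peak centre was -29 and -28 bp at the sites, 61.8% and 61.9% of centres lay upstream, and 56.4% and 55.1% lay within 100 bp. At CpG-rich promoter peaks the median offset was -17 and -18 bp and 57.7% and 58.0% of centres lay upstream. As a check of the starts, RefSeq lists mRNAs for 1060 of the 1113 genes, and 856 of these (80.8%) have a RefSeq start within 100 bp of the 5′ end used. At 117 of the 1060 the nearest RefSeq start is more than 500 bp away. Examples among the genes named are Pecam1, Opn1sw (7955 bp), Odf3l1 (4169 bp), Krt19 (2739 bp), Ptms (2157 bp), Mttp (1550 bp) and Tnni3 (1511 bp), and 6 of the 8 olfactory receptor genes with a site.

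**Figure D4:**
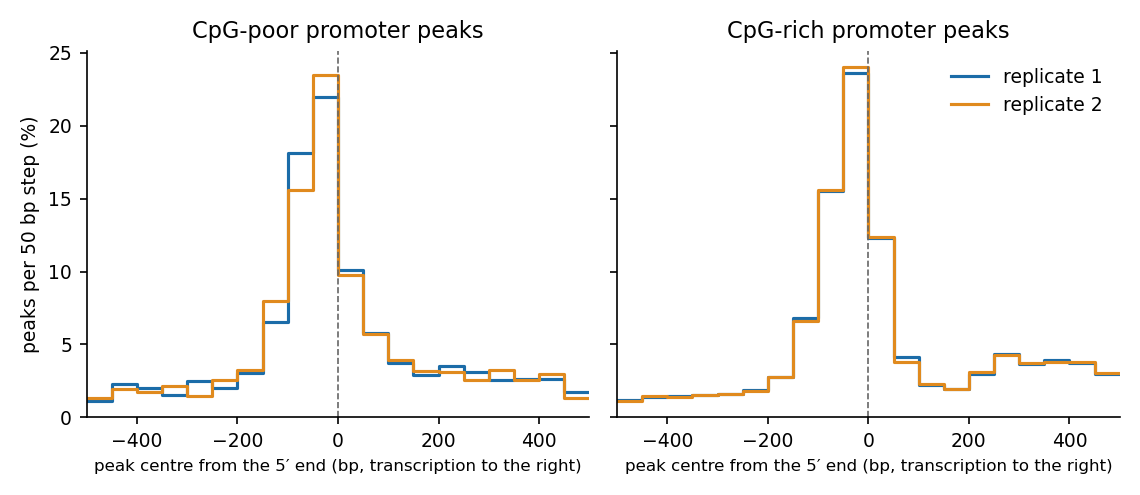
Percent of peaks per 50 bp step (vertical axis) by the distance of the peak centre from the 5′ end (horizontal axis, transcription to the right), for CpG-poor promoter peaks on the left and CpG-rich promoter peaks on the right, 1 line per library. Both classes have their highest step in the 50 bp before the start, and the CpG-rich class has a low second rise from about 250 bp into the transcript.

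The DNA under the peaks lay between that of CpG-rich promoter and distal peaks in composition. Median GC content was 54.7% and 54% in CpG-poor promoter peaks, 66% in CpG-rich promoter peaks and 50% in distal peaks in both libraries. A peak held a median of 3 CpG dinucleotides, against 13 and 2. No CpG was present in 8.99% and 9.09% of CpG-poor promoter peaks, against 0.141% and 0.0966% of CpG-rich promoter peaks and 17.1% and 17.0% of distal peaks. CpG content entered the rule, so these values describe the members and test nothing.

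An exact TATAAA at the place of a TATA box was rare at the accessible CpG-poor promoters, though less rare than over all protein-coding genes. Variants of the sequence were not searched, and a TATA box at a start other than the 5′ end used was not counted. TATAAA on the gene's strand, with its first base 20 to 40 bp upstream of the start, was present at 36 of 1113 genes with a site (3.23%). The share was 5.33% at CpG-poor genes with no peak, 0.759% at CpG-rich genes with a shared peak and 2.48% over all protein-coding genes. The 37 sites of those genes had median values of 51 and 40, against 51 and 48 at the other sites. The genes named here for the TATA box were chosen after their values were seen. Among the strong ones, Nmrk2 (a muscle nicotinamide riboside kinase) had 95 and 98 and Adamtsl2, a matrix protein, had 105 and 84. Alpk3, for a kinase of heart muscle, had 65 and 69. The weakest were Mcpt1, a mast cell protease gene, with 8 and 8, and Cyp2a22 with 9 and 7.

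Other motifs were counted in the 300 bp promoter from 250 bp before to 50 bp after the start, on both strands. The E-box CAGCTG was present in 26.6% of promoters with a site, against 16.2% of CpG-poor promoters with no peak, 13.8% of CpG-rich promoters with a shared peak and 15.5% of all protein-coding promoters. The ETS core CAGGAAG was present in 21.7% of promoters with a site, 14.2% of those with no peak, 10.6% of the CpG-rich and 12.4% of all. The MCAT element CATTCC, bound by TEAD factors, was present in 20.3%, 16.3%, 11.1% and 13.5% in the same order. The MEF2 site was present in 6.20%, 4.91%, 1.53% and 2.88%. These motifs were therefore more frequent in the promoters with a site than in each other class of promoters. MEF2 was less frequent inside CpG-poor promoter peaks (4.613% and 4.584% in replicates 1 and 2) than inside distal ones (5.422% and 5.398%). CATTCC was less frequent there too, at 11.34% and 10.64% against 12.22% and 12.42%. CAGCTG was more frequent, at 17.7% and 17.2% against 14.6% in each library, as was CAGGAAG, at 14.2% and 14.3% against 11.1%.

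The GATA, TATA and CCAAT motifs were less frequent in promoters with a site than in CpG-poor promoters with no peak, and the GC box was more frequent. GATAA was present in 27.1% of promoters with a site, 37.7% of those with no peak, 14.4% of the CpG-rich and 23.1% of all. TATAAA anywhere in the 300 bp was present in 13.6%, 23.6%, 6.34% and 12.7% in that order. CCAAT was present in 33.6%, 40.5%, 38.8% and 38.6%. The GC box GGGCGG was present in 25.2% of promoters with a site, against 7.22% of those with no peak, 68.0% of the CpG-rich and 43.7% of all. The median GC content within 500 bp of the 5′ end was 51.1% at genes with a site and 44.8% at CpG-poor genes with no peak. The part of this difference in the motif shares was not tested.

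**Figure D5:**
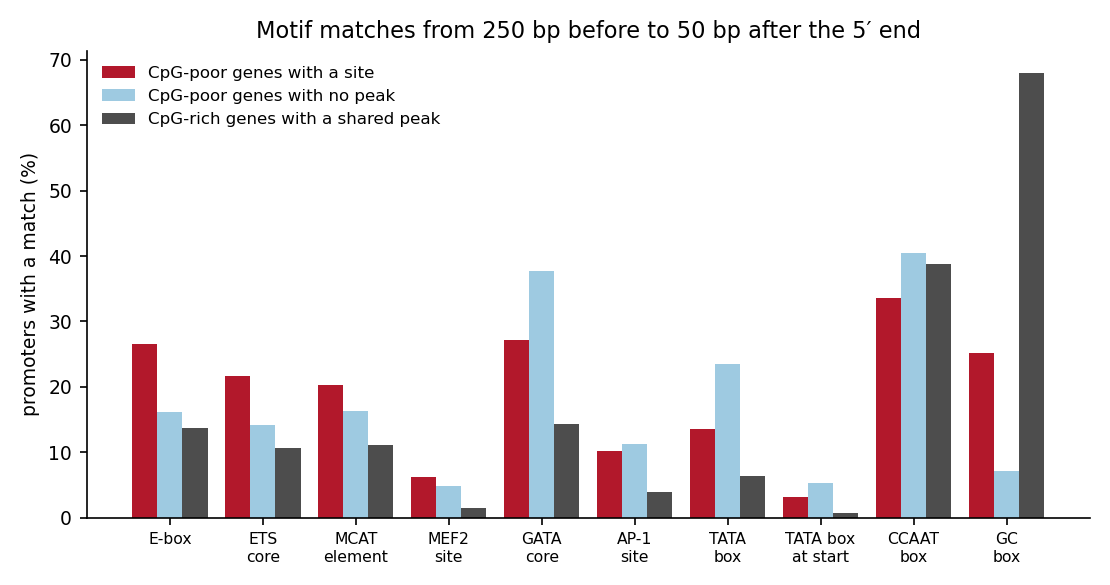
Percent of 300 bp promoters with a match on either strand (vertical axis) for 10 motif counts, with CpG-poor genes with a site in red, CpG-poor genes with no peak in light blue and CpG-rich genes with a shared peak in grey; "TATA box at start" is TATAAA 20 to 40 bp upstream on the gene's strand. The E-box, ETS, MCAT and MEF2 bars are tallest for genes with a site, while the GC box bar is tallest for CpG-rich genes at 68.0%.

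The remaining motifs are given in the same order of promoters with a site, CpG-poor promoters with no peak, CpG-rich promoters and all. The AP-1 site TGANTCA was present in 10.2%, 11.3%, 3.92% and 6.88%, and the NKX2-5 site CACTTNA in 13%, 15.3%, 8.36% and 11.0%. Both were thus less frequent with a site than with no peak, but more frequent than at CpG-rich promoters. The MEIS core CTGTCA was present in 22.7%, 21.9%, 15.1% and 17.9%, and the CArG box in 1.53%, 1.77%, 1.18% and 1.40%. The cAMP response element TGACGTCA was present in 1.08%, 0.616%, 3.87% and 2.43%. The T-box site AGGTGTGA was present in 0.898%, 2.12%, 0.640% and 1.22%, and the ERR element TCAAGGTCA in 0.449%, 0.847%, 0.274% and 0.490%. These last 2 were rare in every class, and less frequent with a site than with no peak. Matches of different motifs can overlap, and a TATAAA can lie inside a MEF2 match.

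The heart muscle genes with a site held some of these motifs more often than the 1113 genes as a whole. Of the 40 genes, 23 had CAGCTG (57.5%, against 26.6% of genes with a site), 12 had a MEF2 site (30%, against 6.20%), 12 had CATTCC (30%, against 20.3%) and 16 had GATAA (40%, against 27.1%). The MEF2 genes were Mybpc3, Myh6, Myl2, Myoz2, Synpo2l, Ttn, Xirp1, Xirp2, Casq2, Cox6a2, Cpt1b and Pgam2. TATAAA at 20 to 40 bp upstream was found only at Acta1 and Trim63. ETS was infrequent there, with CAGGAAG at 3 of 40 genes. Of 11 endothelial genes with a site 5 had CAGGAAG (45.5%), namely Ecscr, Emcn, Mmrn2, Pecam1 and Robo4, and none had TATAAA. Of 9 fibroblast and matrix genes 5 had CATTCC and 4 had TATAAA in the window, namely Col1a1, Col3a1, Mgp and Postn. These are counts of small lists and were not tested. Lists and motifs were chosen with earlier results of these data known.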

How the data were processed

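DNase-seq of whole newborn mouse heart was used as 2 libraries of 1 group. Per the text files the authors deposited, each replicate's own filtered mm10 alignments gave its peaks and hotspots. Aligner, caller, thresholds and versions were not given in the sources used here. The deposited peak lists hold 1 signal value per 150 bp peak, with no stated normalization and no read total. Classes of peaks were therefore compared within a library. Differences between the libraries use the deposited values without scaling, and can include a shift of a whole library. The deposited hotspot lists hold a −log10 of the q-value and a score, which was not used. The authors' caller sets which weak sites are listed at all, and so every count.

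The 5′ end of each GENCODE vM21 gene row was used to include genes, and every annotated transcript start of any gene to exclude peaks. The CpG ratio was the CpG count times the window length over the product of C and G counts in the 1001 bp window of GRCm38. Distal peaks lay more than 1 kb from any annotated start. Values are summarised per library, with no model. The rules were tested on simulated data with planted starts, peaks and motifs. The simulated starts lay on the plus strand and too far apart to test the exclusion of peaks beside a CpG-rich start. Named sites are the 25 strongest, all list members, the genes with the most sites, the 5 largest differences, the genes next to the threshold, the widest hotspots, well-known genes among the 60 strongest, and those with the most distal peaks; the text gives examples of these. Members, the 22 gene lists and 15 motifs were chosen with earlier results of these data known. Scripts used Python 3.11.15, pandas 2.3.3, numpy 2.4.6, scipy 1.17.1 and pysam 0.24.0. Other CpG thresholds, distances, overlaps, starts and peak strengths, and each library alone, were tried. Chromosome Y was not analysed here, and the single sites of a few genes are not reported here.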

Additional observations from a re-analysis of the deposited data

Results flagged for a closer look

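Chromosome X lies outside the rule, which takes chromosomes 1 to 19. By the same rule 54 sites were found there, where 490 genes are CpG-poor. On chromosomes 1 to 19 there were 1248 sites and 8133 CpG-poor genes. Mospd1, Gpr173 and Awat2 each had more than 1 site, and the share of chromosome X genes with a site was not counted. The strongest sites on chromosome X were at Mid1ip1, with 89 in replicate 1 and 77 in replicate 2, and Mospd1, with 87 and 70. Muscle genes followed: Dmd (dystrophin) had 80 and 74, Srpk3 (a muscle kinase) 76 and 59, and Smpx (small muscle protein) 74 and 74. There is no control sample to set them against.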

How the results depend on the processing

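No paired analysis was possible because the labels give only 1 group. The number of sites was 1248. It became 738 at a CpG threshold of 0.3, 2018 at 0.5, 3660 when any annotated start of a protein-coding gene was allowed, and 817 with the stronger 50% of peaks of each library. It stayed within 1.5 times with a distance of 250 bp (999), an overlap of 75 bp (1205), and in either library alone, at 1579 to 1689 peaks. The share of CpG-poor genes with a site, 13.7%, was 9.81% at 0.3, 18.8% at 0.5, 17.8% with any start, 9.32% with the stronger peaks and 12.1% at 250 bp, and 15.7% to 16.7% in either library alone. The difference of medians from CpG-rich promoter peaks kept its sign, with -31 as the main value. It was -32.5 at 0.3, -26.5 with any start, -31.5 at 75 bp overlap, -36.5 at 250 bp, -22.5 with the stronger peaks, and -30 to -29 in either library alone. The mean over the libraries of the share of peaks found again, 79.7%, was 75.4% at 75 bp overlap, 84.0% at 250 bp and 85.9% with the stronger peaks. The share of genes with TATAAA 20 to 40 bp upstream was 3.23%. It was 1.58% with any start and 2.48% to 4.08% in the other settings. The 95% Wilson interval over genes, 2.35% to 4.45%, takes genes as independent draws and does not measure spread between libraries. Only the share with any start lay outside it, but the settings share many genes, so staying inside is a weak check. The thresholds, windows and peak filters set by construction which starts and peaks are counted. Read depth is unknown, so a missing site may be a site under the caller's threshold.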

Other observations

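Families of genes that share the letters before the first digit of their symbol were counted after the values had been seen, where at least 15 members were CpG-poor. Of all CpG-poor genes 13.7% had a site. The interferon-inducible Ifi genes had the highest share, with a site at 9 of 18 (50%). Ifi27 had 86 and 80 in replicates 1 and 2 and Ifi35 had 86 and 77, whereas Ifi207 had 21 and 18. Collagen genes had sites at 8 of 18 (44.4%), among them Col6a3 with 47 and 41. Tripartite motif genes had 13 of 36 (36.1%), from the innate immune gene Trim21, with 86 and 86, to the muscle gene Trim55 (MuRF2), with 103 and 89. Zinc finger genes of the Zfp series had 29 of 95 (30.5%). At the other end, the families Mup (22 CpG-poor genes), Prl (25), Klk (25), Tas (38) and Lce (21) had no site.

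Of the 27 CpG-poor genes whose symbol begins with the letter H and a hyphen or digit, 7 had a site (25.9%, against 13.7% of all CpG-poor genes). All 7 are H2 genes of the major histocompatibility complex. H2-Aa had 58 and 54, H2-Eb1 had 53 and 58, H2-Ab1 had 40 and 43, and Cd74, for the invariant chain, had 36 and 25. The genes named were chosen after their values were seen.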
